A study of Mus musculus with 4 samples.

Results

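The accessible regions of 10 myeloid receptor genes were examined, namely the sialic acid-binding lectin genes Cd33, Siglec1, Siglece and Siglecg, the signal-regulatory protein gene Sirpa, the CD300 genes Cd300a and Cd300lf, the paired receptor gene Pilra and the TREM genes Trem1 and Trem2. The peaks of 4 ATAC-seq libraries were merged where they overlapped by at least 1 bp, each region took the gene name of the peak with the highest score, and 61 of 60710 regions carried the name of one of these genes. The regions were thus chosen by gene name, with the score deciding between names, but all peaks of each of the 61 regions carried 1 name. The genes themselves were chosen with earlier results of these libraries known, so that counts over them are a description. ATAC-seq marks open chromatin by the insertion of adapters with the Tn5 transposase. Bone marrow cells of wild-type C57BL/6 mice aged 8 to 12 weeks were differentiated for 6 days with L929 supernatant, which supplies macrophage colony-stimulating factor, into bone marrow-derived macrophages (BMDMs). Control cells received no cytokine (n = 2 libraries), and the other cells were exposed for 1 h to IL-4 (20 ng/ml, n = 2 libraries). The methods call the 2 libraries of a group biological replicates, but the sources do not say whether they came from separate animals.

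These receptors set the threshold of myeloid cell activation. Siglece, Siglecg, Sirpa, Cd300a, Cd300lf and Pilra encode receptors with inhibitory tyrosine motifs, which recruit the phosphatases encoded by Ptpn6 and Ptpn11 once Src-family kinases have phosphorylated them. Siglecs bind sialic acid on glycans, Sirpa binds the "do not eat me" ligand CD47, and CD300a binds phosphatidylserine and phosphatidylethanolamine on dying cells. Trem1 and Trem2 have short cytoplasmic tails and signal through the adaptor DAP12, encoded by Tyrobp, to the kinase Syk. Siglec1, also called sialoadhesin, is a macrophage adhesion receptor without an inhibitory motif of its own.

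IL-4 activates STAT6, which binds TTC and GAA separated by 4 bases of any kind. This pattern reads the same on both strands and was found in 11 of the 61 regions. All 11 matches are shown, with 10 bases on each side, because they are the places within these accessible regions where the letters known for the factor downstream of IL-4 occur. Showing every match, and not only those in promoters and group-specific regions, was decided after the values were seen. Sequences are GRCm38.p6 (mm10), plus strand, with the match in capitals. The first 9 lie in regions with a peak in all 4 libraries. The Siglecg upstream region had no peak in control replicate 2, and the Trem2 far upstream region had one in control replicate 1 alone (score 3.74).
Cd33 intron 3, chr7:43530666-43530675: agggtgtgttTTCTAAGGAAgggaagtgac
Sirpa intron 2, chr2:129596152-129596161: cacttcctctTTCGTAGGAAaaagggggtg
Sirpa upstream, chr2:129586294-129586303: actgtcgatgTTCAGCAGAAactgacagag
Siglec1 upstream, chr2:131090956-131090965: ctgacctgccTTCCAGAGAAgagaacagga
Siglec1 far upstream, chr2:131096618-131096627: atcatctccgTTCACAGGAAgctgagtcac
Cd300a upstream, chr11:114885019-114885028: gcccctgactTTCACTGGAAcagtcagaga
Cd300a downstream, chr11:114903312-114903321: agtggttcttTTCTCTTGAAagagcagtgg
Pilra intron 3, chr5:137830469-137830478: caggccctttTTCCTGTGAAagccaaaagg
Trem2 promoter, chr17:48346490-48346499: ttttctgcacTTCAAGGGAAaagcaagatc
Siglecg upstream, chr7:43397087-43397096: aaaaaaaaaaTTCAAGAGAAggttttaatt
Trem2 far upstream, chr17:48333203-48333212: agcctgatgcTTCGGATGAAaacctctttg

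Beside the Sirpa intron 2 match, with 1 base between them, lies a PU.1-type GAGGAAGT on the minus strand (chr2:129596143-129596150). PU.1 is the ETS factor that establishes macrophage enhancers. In the far upstream Siglec1 match, an AP-1-type TGAGTCA follows at chr2:131096630-131096636.

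The regions found in both control libraries and in neither IL-4 library are shown next because they are the regions of these genes whose peak calls separated the groups. The 3 with the highest height in their weaker library are given. Each is the whole region on the strand of the gene, and capitals mark matches to the other motifs searched on both strands. They were TGTGGT for RUNX, TGANTCA for AP-1 (N is any base), GAGGAAGT for PU.1, TTGCGCAA for C/EBP, the 3-base-spacing STAT pattern TTCNNNGAA and the IRF pattern of paired GAAA with 2 bases between.
Cd33, 5557 bp upstream of the TSS, minus strand, chr7:43538613-43538821: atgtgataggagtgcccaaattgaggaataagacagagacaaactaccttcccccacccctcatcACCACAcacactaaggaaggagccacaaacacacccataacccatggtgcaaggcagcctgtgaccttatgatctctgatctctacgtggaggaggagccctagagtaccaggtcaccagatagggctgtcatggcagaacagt
Sirpa, 10525 bp downstream of the TSS, plus strand, chr2:129603660-129603775: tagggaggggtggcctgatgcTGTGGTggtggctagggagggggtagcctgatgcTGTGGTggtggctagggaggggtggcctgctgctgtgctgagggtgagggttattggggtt
Pilra, 11077 bp downstream of the TSS, minus strand, chr5:137825093-137825309: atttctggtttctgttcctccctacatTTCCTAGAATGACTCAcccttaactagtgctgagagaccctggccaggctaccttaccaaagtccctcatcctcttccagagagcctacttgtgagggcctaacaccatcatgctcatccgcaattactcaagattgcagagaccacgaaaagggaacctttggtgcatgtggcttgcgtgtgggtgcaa

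The Cd33 sequence held 1 RUNX-type match, which reads ACCACA on the strand shown. The Sirpa sequence held 2 matches to TGTGGT in a repeated stretch. In the Pilra sequence, a 3-base-spacing STAT match ran directly into an AP-1 match, so that the capitals form one block.

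Peaks were called in each library on its own, and the deposited score of a peak, read as −log10 of its q-value, is called peak height. Height states how clearly a peak stood out from the rest of that library, is not a read count, and grows with sequencing depth, which is unknown because no reads are given. In control replicates 1 and 2 there were 45250 and 41885 peaks (median height 8.04 and 7.46), and in IL-4 replicates 1 and 2 there were 41978 and 39462 (7.69 and 6.41). Paired values below follow this order. Macrophage identity was looked up at 9 marker genes, of which 7 had a peak within 1000 bp of the transcription start site (TSS) in all 4 libraries and 8 in at least 1. Csf1r alone of the 9 had none there, and had 10 regions farther out. Macrophage marker heights summed to 90.6 and 75.6 in control and to 73.9 and 72.7 after IL-4. No TSS peak was found in any library at the 4 B cell, 4 neutrophil, 3 mast cell and 3 erythroid markers. Of the other lists, 1 of 4 T cell markers had one (6.18, control replicate 2), as did 1 of 3 stromal markers (5.44, control replicate 1) and 2 of 3 dendritic cell markers (summed 12.7 and 7.76 in control, 12.8 and 0 in IL-4 libraries). In such bulk samples, fewer cells with an open region and a less open region per cell cannot be told apart.

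The first comparison asked which of these regions were found in one group alone. No region of the 10 genes had a peak in both IL-4 libraries and none in the controls, compared to 2.53% of all regions (IL-4-only regions). A count of 0 among 61 regions is near that share. Of the 61 regions, 7 (11.5%) had a peak in both control libraries and in neither IL-4 library, compared to 4.33% of all regions (control-only regions). They belonged to 6 genes, namely Cd33, Siglece, Sirpa, Cd300a, Pilra with 2 regions, and Trem1. With 2 libraries a group and no counts, presence of a single region could not be tested. Another 28 regions (45.9%, compared to 41.9% of all regions) had a peak in all 4 libraries, 6 in 3 libraries and 6 in one library of each group. The remaining 14 were found in 1 library, 8 of them in a control library and 6 in an IL-4 library.

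Peaks assigned to the 10 genes numbered 48 and 45 in control and 40 and 37 after IL-4. The groups did not overlap, with 46.5 ± 2.12 peaks in control and 38.5 ± 2.12 after IL-4 (SD, n = 2 each; difference −8.0 peaks, two-sided exact permutation p = 0.3333, the smallest p that 2 against 2 libraries can give). Total peak numbers overlapped between the groups, with 45250 and 41885 in control and 41978 and 39462 after IL-4 (exact permutation p = 0.6667). Per 1000 peaks of the library, the 10 genes had 1.06 and 1.07 peaks in control and 0.953 and 0.938 after IL-4, again without overlap (difference −0.122, exact permutation p = 0.3333). The part of depth in this difference was not tested. Among peaks above the pooled median height of 7.37, the difference was 0.5 peaks in the other direction.

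Pilra, an inhibitory receptor for sialylated O-glycoproteins, had the widest gap between the groups, with 6 and 6 peaks in control and 3 and 2 in the IL-4 libraries. This was the widest among 10 genes, rested on low peaks and was not tested. Cd300a had 9 and 7 against 7 and 6, and Trem2, a lipid receptor of macrophages and microglia, had 5 and 3 against 3 and 3. In both genes the groups shared a value and so overlapped. Cd300lf and Siglece had equal numbers in every library, 4 and 3 peaks respectively. Sirpa, the gene with the most regions (13), had 7 and 9 peaks in control and 9 and 6 after IL-4, so its groups overlapped, as did those of Cd33 (4 and 4 against 5 and 3), Siglec1 (5 and 4 against 2 and 5), Siglecg (3 and 2 against 3 and 3) and Trem1 (2 and 3 against 1 and 2).

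**Figure D1:**
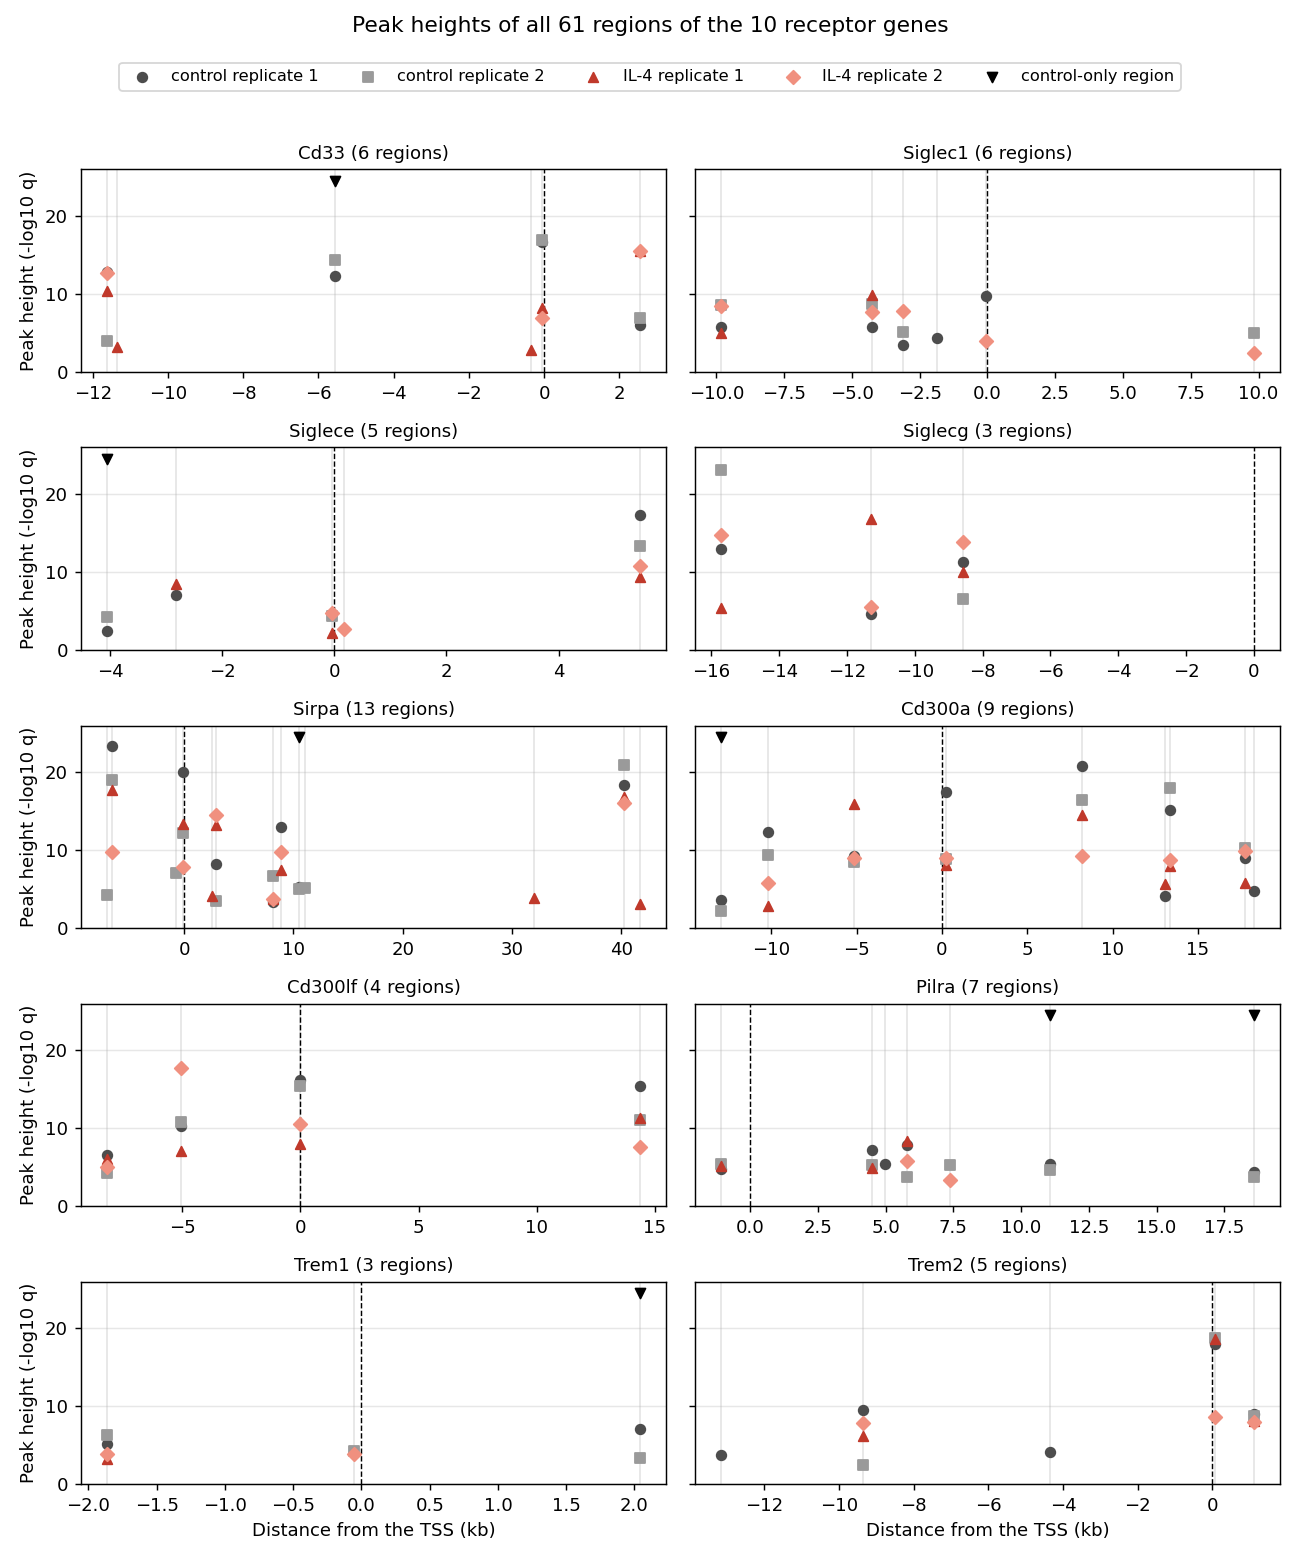
Peak height (−log10 q) of each of the 61 regions against its distance from the TSS in kb (negative is upstream), with 1 panel per gene, 1 marker per library and black triangles above the 7 control-only regions; a missing marker means no peak in that library. The strongest control-only region is that of Cd33 at −5557 bp (12.33 and 14.43), and the peaks of Pilra stay under 9 throughout.

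By position, 9 of the 61 regions (14.8%) were promoter regions, compared to 18.8% of all regions, 21 were intronic and 26 intergenic. The median distance from the TSS was 5806 bp, compared to 14419 bp for all regions, the farthest being the Sirpa region at 41682 bp, and the median length was 223 bp, compared to 209 bp. The 9 promoter regions belonged to 7 genes. Siglecg, Cd300a and Pilra had none, although Cd300a had a region in its first exon (5′ UTR, 248 bp downstream of the TSS) and the nearest Pilra region lay 1062 bp upstream. Some of the receptor genes lie in the same part of a chromosome. The start sites of Siglecg and Cd33 are 124891 bp apart and those of Cd33 and Siglece 126990 bp on chromosome 7, those of Trem1 and Trem2 113662 bp apart on chromosome 17, and those of Cd300a and Cd300lf 243951 bp apart on chromosome 11. Assignment to a gene rests on the nearest TSS alone.

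The second comparison asked whether height differed where every library had a peak. Log2 heights were quantile-normalised and fitted with limma over all 25442 such regions, of which 28 belonged to the 10 genes. None of the 28 passed a Benjamini-Hochberg adjusted p of 0.05 in either direction, at a background of 0.0157% of all fitted regions called higher and 0.00786% called lower after IL-4, and the lowest adjusted p was 0.27. At an unadjusted limma p under 0.05, 2 regions were higher and 2 were lower, compared to 4.12% and 4.15% of all regions. In 6 of the 28, both normalised IL-4 heights lay above both control heights, and in 7 they lay below, compared to 19.2% and 18.6% of all regions, so these counts were near the background. Of the 28 changes, 16 were negative and 12 positive, compared to 12739 negative and 12702 positive over all regions. The median log2 change was −0.12, compared to 0.00 for all regions (−0.001). Without IL-4 replicate 1 the median turned to 0.14.

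**Figure D2:**
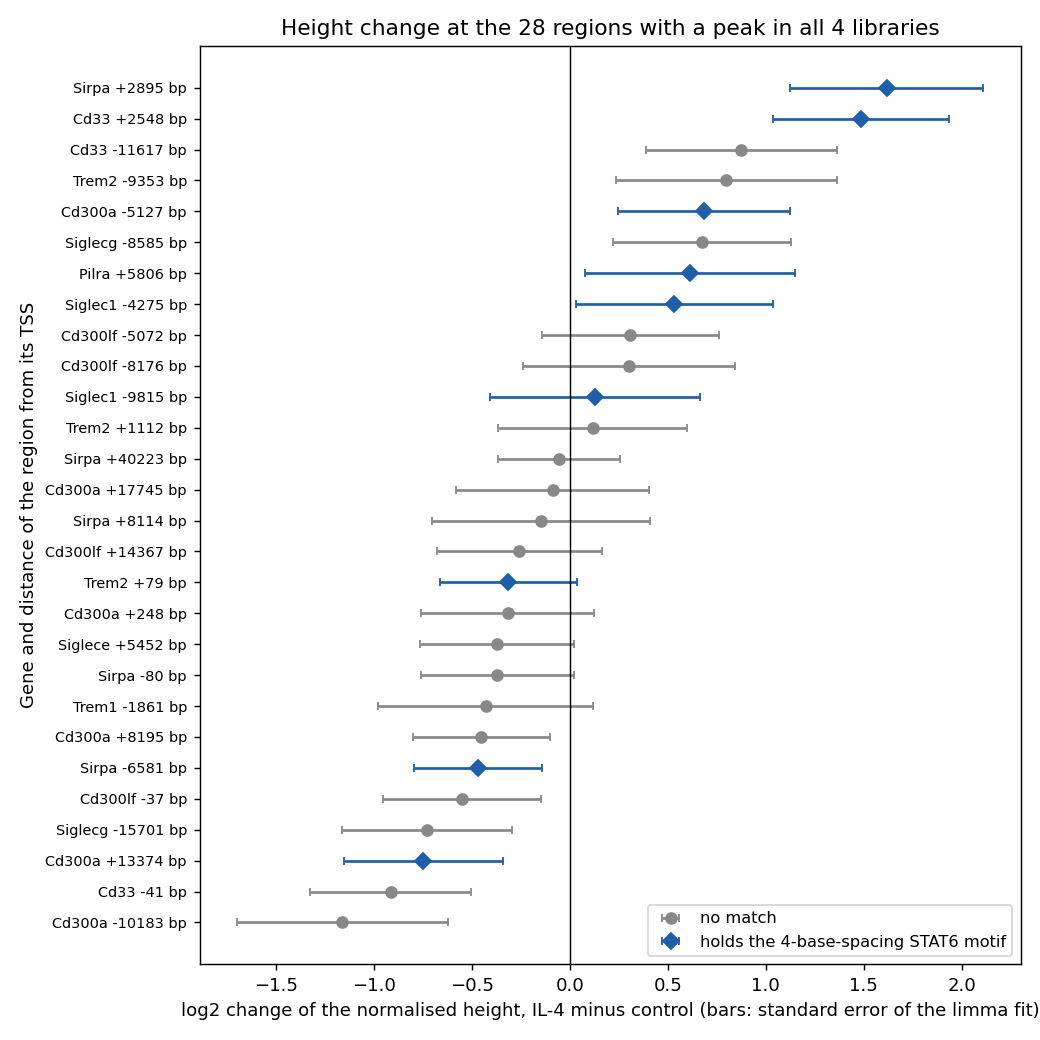
log2 change of the normalised height (IL-4 minus control, x axis) for the 28 regions found in all 4 libraries, named by gene and distance from the TSS (y axis); bars are the standard error of the limma fit and blue diamonds mark the 9 regions with the 4-base-spacing STAT6 motif. Values run from −1.16 at Cd300a −10183 bp to 1.62 at Sirpa +2895 bp, and the 2 highest both hold the motif.

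Cd33, a sialic acid-binding lectin of myeloid cells, held regions whose changes had opposite signs. In intron 3, 2548 bp downstream of the TSS (chr7:43530225-43530855), heights were 6.03 and 6.99 in control and 15.55 and 15.47 after IL-4. Both IL-4 libraries were far above both control libraries, and the percentile of the peak within its own library was 35.5 and 46.8 in control and 81.9 and 87.6 after IL-4. The log2 change of 1.49 ± 0.45 (SE) had an unadjusted limma p of 0.0016 and an adjusted p of 0.27, the lowest of the 28 regions. This region holds the first of the STAT6-type matches shown.

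At the Cd33 promoter (41 bp upstream of the TSS, chr7:43533082-43533342), heights were 16.68 and 16.95 in control and 8.19 and 6.99 after IL-4. Here both IL-4 libraries were lower, at percentiles 54.0 and 55.2, compared to 82.1 and 85.6 in control. The log2 change was −0.91 ± 0.41 (SE; limma adjusted p = 0.555). The part of this promoter upstream of the TSS is shown because it had the largest negative change among the 4 fitted promoter regions of the 10 genes. Capitals mark TGTGGT, a RUNX-type match.
Cd33 promoter, minus strand, chr7:43533172-43533342: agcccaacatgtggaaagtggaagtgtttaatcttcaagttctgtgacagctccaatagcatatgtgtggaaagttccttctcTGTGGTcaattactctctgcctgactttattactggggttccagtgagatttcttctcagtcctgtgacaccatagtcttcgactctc

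The control-only region of Cd33 (chr7:43538613-43538821, 5557 bp upstream) had heights of 12.33 and 14.43 in control and no peak after IL-4. Of all 2630 control-only regions, none had a higher height in its weaker library, and the median weaker height was 3.76 for the 7 control-only regions of the 10 genes and 4.0 for all. It lay 1189 bp upstream of the 5′ end of the RefSeq gene model of Cd33 and overlapped no gene. A second promoter region of Cd33, 348 bp upstream, was found in IL-4 replicate 1 alone (2.86). The farthest region, 11617 bp upstream, had 12.85 and 3.98 in control and 10.38 and 12.72 after IL-4, and a peak beside it at 11349 bp was found in IL-4 replicate 1 alone (3.19).

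**Figure D3:**
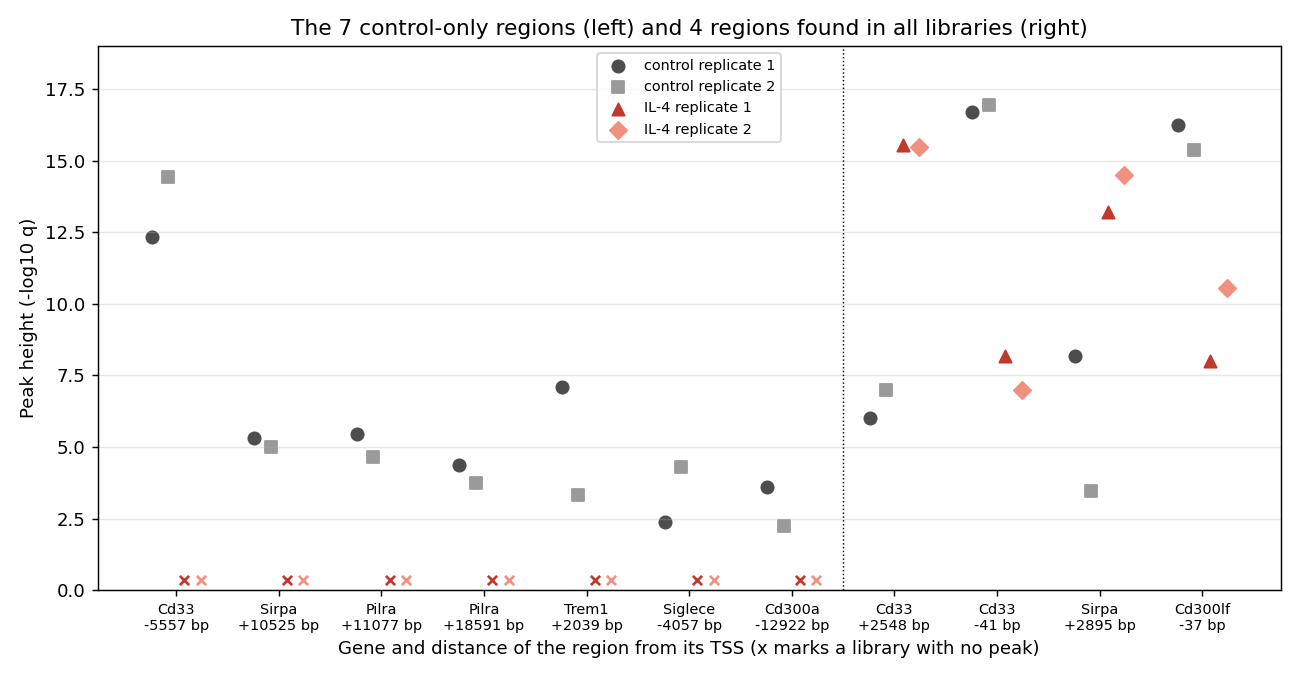
Peak height (−log10 q, y axis) in each library at the 7 control-only regions (left of the dotted line, ordered by the weaker control height) and, for comparison, at 4 regions found in all libraries; crosses near 0 mark libraries with no peak. The Cd33 region at −5557 bp stands above the other control-only regions, whose heights lie between 2.26 and 7.10.

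Siglece, an inhibitory Siglec of mouse myeloid cells, had its highest region in intron 6 (5452 bp downstream, chr7:43654597-43654836), with 17.39 and 13.40 in control and 9.44 and 10.83 after IL-4. Deposited heights did not overlap, but the log2 change was only −0.37 ± 0.39 (SE; limma adjusted p = 0.866). The Siglece promoter (40 bp upstream) was weak, with 4.38 in control replicate 2 and 2.25 and 4.82 in the IL-4 libraries. Its control-only region, 4057 bp upstream, had heights of 2.39 and 4.29 and lies inside the longer RefSeq model of Siglece.

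Siglecg, an inhibitory Siglec best known from B cells, had 3 intergenic regions upstream and no promoter region. At the highest, 15701 bp upstream (chr7:43392463-43392678), heights were 13.03 and 23.14 in control and 5.42 and 14.79 after IL-4, so the groups overlapped (log2 change −0.73 ± 0.43 SE, limma adjusted p = 0.684), and without IL-4 replicate 1 the change turned to 0.14. The region at 11295 bp upstream had 4.62 in control replicate 1, no peak in control replicate 2, and 16.82 and 5.48 after IL-4. It holds the STAT6-type match that follows a run of adenines, and is described here although no rule chose it.

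Siglec1 had a promoter peak (50 bp upstream) in control replicate 1 (9.78) and IL-4 replicate 2 (3.93) alone, so presence did not follow the groups. Its highest region, 4275 bp upstream (chr2:131090900-131091181), had 5.81 and 8.76 in control and 9.89 and 7.67 after IL-4, which overlapped as deposited but not after normalisation. The log2 change was 0.53 ± 0.50 (SE; limma adjusted p = 0.839). Siglec1 was one of the 4 genes without a control-only region, with Siglecg, Cd300lf and Trem2, and both of its regions with peaks in all libraries held a STAT6-type match.

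Sirpa, the inhibitory receptor for CD47, had the highest positive change of the 28. At 2895 bp downstream of the TSS in intron 2 (chr2:129595920-129596215), heights were 8.18 and 3.48 in control and 13.20 and 14.49 after IL-4. Both IL-4 libraries were above both controls, with percentiles of 50.6 and 10.3 in control and 75.5 and 85.7 after IL-4. The log2 change of 1.62 ± 0.49 (SE) had a limma adjusted p of 0.277 (0.00178 before adjustment). It was 1.08 without control replicate 2 and 2.15 without control replicate 1. The region holds the second STAT6-type match shown, the one beside a PU.1-type match.

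Of the other Sirpa regions, that at 6581 bp upstream (chr2:129586095-129586427) holds the third STAT6-type match shown and is described although no rule chose it. It had 23.36 and 18.95 in control and 17.74 and 9.78 after IL-4, with both IL-4 libraries lower (log2 change −0.47 ± 0.33 SE, limma adjusted p = 0.758). The promoter region (80 bp upstream, chr2:129592456-129593017) had 20.0 and 12.16 in control and 13.38 and 7.87 after IL-4, with overlapping groups (log2 change −0.37 ± 0.39 SE), and it held the only TTGCGCAA match of the 61 regions. The region with the highest mean, 40223 bp downstream (chr2:129633105-129633718), had 18.40 and 20.88 in control and 16.82 and 16.10 after IL-4, a log2 change of −0.05 ± 0.31 (SE), which was positive without control replicate 2 (0.13) or IL-4 replicate 1 (0.07). The other promoter region, 742 bp upstream, was found in control replicate 2 alone (7.06). Its control-only region in intron 2, 10525 bp downstream, had 5.31 and 5.0. In total, 6 of the 13 Sirpa regions were found in 1 library.

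Pilra had low peaks. The only region with a peak in all libraries, 5806 bp downstream in intron 3 (chr5:137830302-137830587), had 7.88 and 3.71 in control and 8.31 and 5.82 after IL-4, which overlapped as deposited but not after normalisation (log2 change 0.61 ± 0.54 SE, limma adjusted p = 0.819). Of its 2 control-only regions, the one 11077 bp downstream in intron 4 had 5.46 and 4.64. The other, 18591 bp downstream (4.38 and 3.76), lies in intron 13 of Zcwpw1, a neighbouring gene, and belongs to Pilra by the nearest TSS alone.

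Cd300a had 6 regions with peaks in all libraries, and 5 of the 6 changes were negative, compared to 12739 of all 25442 fitted regions. At 10183 bp upstream (chr11:114879728-114879969), heights were 12.30 and 9.44 in control and 2.89 and 5.82 after IL-4, without overlap. The log2 change of −1.16 ± 0.54 (SE) had a limma adjusted p of 0.567 (0.0354 before adjustment). It was −0.47 without IL-4 replicate 1 and −1.87 without IL-4 replicate 2. The highest Cd300a region, in intron 4 (8195 bp downstream, chr11:114898107-114898379), had 20.79 and 16.48 in control and 14.57 and 9.32 after IL-4, lower in both IL-4 libraries (log2 change −0.45 ± 0.35 SE). The control-only region, 12922 bp upstream, was weak (3.61 and 2.26).

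Another 2 Cd300a regions outside the naming rule hold STAT6-type matches and moved in different directions. The region 13374 bp downstream, placed by the deposited annotation in the 3′ UTR although the current RefSeq gene ends at 114901946, had 15.18 and 18.04 in control and 7.97 and 8.74 after IL-4 (log2 change −0.75 ± 0.41 SE). The one 5127 bp upstream had 9.30 and 8.45 in control and 15.97 and 8.95 after IL-4 (log2 change 0.69 ± 0.44 SE).

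Cd300lf, an inhibitory CD300 receptor, had a peak in every library at each of its 4 regions. Its promoter (37 bp upstream, chr11:115133902-115134196) had 16.25 and 15.37 in control and 7.99 and 10.54 after IL-4, with both IL-4 libraries lower (log2 change −0.55 ± 0.40 SE, limma adjusted p = 0.771). The regions 5072 and 8176 bp upstream lie in introns of Rab37, a GTPase gene that overlaps the locus. The upstream part of the promoter is shown as a promoter that was lower after IL-4 in both libraries and held none of the 7 motifs before the TSS. A PU.1-type GAGGAAGT lies next to its last base, on the transcribed side (chr11:115133985-115133992).
Cd300lf promoter, minus strand, chr11:115133993-115134196: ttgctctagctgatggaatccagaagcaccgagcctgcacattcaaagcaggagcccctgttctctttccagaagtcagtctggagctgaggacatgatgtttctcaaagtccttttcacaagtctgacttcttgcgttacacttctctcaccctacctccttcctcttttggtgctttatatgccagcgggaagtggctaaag

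Trem1, which amplifies inflammatory signalling, had 3 weak regions. Its promoter peak (57 bp upstream) was found in control replicate 2 (4.24) and IL-4 replicate 2 (3.85) alone. The region 1861 bp upstream (chr17:48230750-48230990) had 5.16 and 6.35 in control and 3.29 and 3.85 after IL-4, lower in both IL-4 libraries as deposited but overlapping after normalisation (log2 change −0.43 ± 0.55 SE, limma adjusted p = 0.894). The control-only region in intron 1, 2039 bp downstream, had 7.10 and 3.33 and also overlaps the predicted gene Gm52308.

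Trem2 had a strong promoter region (79 bp downstream, chr17:48346296-48346636) with 18.06 and 18.74 in control and 18.59 and 8.67 after IL-4. Only IL-4 replicate 2 was low, and the log2 change of −0.31 ± 0.35 (SE; limma adjusted p = 0.873) became 0.06 without that library. At 9353 bp upstream (chr17:48336923-48337140), heights were 9.52 and 2.41 in control and 6.20 and 7.86 after IL-4, and the change of 0.80 ± 0.56 (SE) became −0.09 without control replicate 2. The part of the Trem2 promoter before the TSS is shown for comparison with that of Cd33. Capitals mark a TGANTCA match, and the STAT6-type match of this promoter lies after the TSS.
Trem2 promoter, plus strand, chr17:48346296-48346400: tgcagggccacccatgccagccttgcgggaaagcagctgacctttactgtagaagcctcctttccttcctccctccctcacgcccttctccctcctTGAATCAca

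The 4 promoter regions with a peak in all libraries, those of Cd33, Cd300lf, Sirpa and Trem2, all had negative changes, from −0.91 to −0.31 with a median of −0.46. Of all 7919 fitted promoter regions, 3628 had negative changes, and the median was 0.04. The difference from these 4 regions was not tested. None of the 4 passed the adjusted threshold. That of Trem2 was positive without IL-4 replicate 2, as stated above, the Sirpa change was −0.09 without control replicate 1 and −0.66 without control replicate 2, and that of Cd300lf was −0.20 without IL-4 replicate 1 and −0.89 without IL-4 replicate 2.

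The STAT6-type pattern was found in 11 of the 61 regions (18.0%), compared to 7.23% of all regions. Among regions with a peak in all libraries the share was 9 of 28 (32.1%), compared to 8.92%. Median lengths were 284 bp for the 28 and 325 bp for all such regions. For the 61 regions and all regions they were 223 bp and 209 bp. The part of length in these shares was not tested. None of the 7 control-only regions held it, compared to 2.24% of all control-only regions, whereas 30.9% of all IL-4-only regions did. The 9 regions with a match had a median log2 change of 0.53 (6 positive, 3 negative), and the 19 without had −0.26 (6 positive, 13 negative). Over all fitted regions, the medians were 0.18 with the pattern (1453 positive, 816 negative) and −0.02 without (11249 positive, 11923 negative). Both normalised IL-4 heights were above both controls in 5 of the 9 regions with a match (32.8% of all regions with it) and in 1 of the 19 without (17.9% of all regions without it). They were below both controls in 2 of the 9 (11.5%) and in 5 of the 19 (19.3%). The 9 regions include the 2 with the lowest p, and these shares are a description of a list chosen with results in view.

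**Figure D4:**
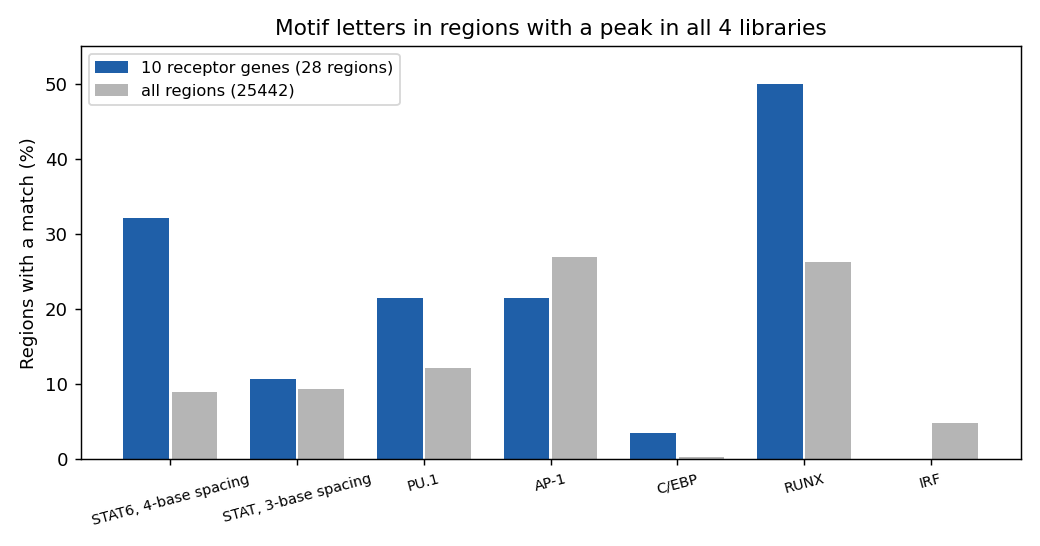
Share of regions (%, y axis) that hold each of 7 motif patterns (x axis) among the 28 of the 10 genes found in all 4 libraries (blue) and among all 25442 such regions (grey); there are no error bars because each bar is 1 share. The STAT6 pattern stands at 32.1% against 8.92% and the RUNX pattern in 14 of 28 against 26.3%, and AP-1 letters at 21.4% against 26.9%; none of these differences was tested.

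Of the other patterns, RUNX-type TGTGGT was found in 19 of the 61 regions (31.1%, compared to 20.4% of all) and in 14 of the 28 with peaks in all libraries (26.3% of all such regions). PU.1-type GAGGAAGT was found in 9 regions (14.8%, compared to 9.88%) and the 3-base-spacing STAT pattern in 6 (9.84%, compared to 6.90%). AP-1-type TGANTCA was found in 18 regions (29.5%, compared to 21.9%), in 6 of the 28 with peaks in all libraries (21.4%, compared to 26.9%) and in 4 of the 7 control-only regions (27.1% of all control-only regions). TTGCGCAA and the IRF pattern were each found in 1 region (0.216% and 3.62% of all). In the RefSeq promoters (250 bases before to 50 after the TSS), 6.95% of 32851 sequences held the STAT6 pattern. Of the 8 genes with a sequence (Sirpa and Siglec1 had none), none held it, and 8 sequences are too few to set apart from that share. TGTGGT occurred in those of Cd33, Cd300lf and Pilra (16.8% of all).

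The other genes of these pathways were given by lists. Of 19 relatives of the same families, 17 had a region, with 58 regions in all, 1 of them IL-4-only and 5 control-only (1.72% and 8.62%, compared to 2.53% and 4.33% of all regions). In the same limma fit 19 of these regions were tested and none passed (1 higher and 1 lower at an unadjusted p under 0.05). Of their changes, 17 were negative (12739 of all 25442 fitted regions) and the median was −0.34. The lowest p was that of Cd300c2, a DAP12-coupled receptor, at −2392 bp (22.78 and 23.01 in control, 15.08 and 6.46 after IL-4; log2 change −0.99 ± 0.35 SE, adjusted p = 0.394). The 14 adaptors, kinases, phosphatases and ligand of these receptors had 102 regions, with 2 IL-4-only and 7 control-only (1.96% and 6.86%). Of 45 fitted, none passed (2 higher and 3 lower at an unadjusted p under 0.05), with 18 positive and 27 negative changes and a median of −0.17.

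Tyrobp, the adaptor that both Trem receptors need, gave the lowest p of that list, at −896 bp, with 18.49 and 21.37 in control and 5.42 and 10.27 after IL-4 (log2 change −1.18 ± 0.41 SE, limma adjusted p = 0.374). Both IL-4 libraries were below both controls. Hcst, the neighbouring adaptor gene, had a control-only region 209 bp downstream of its TSS (4.96 and 6.0), and Vav1, a signalling exchange factor, had one in its promoter (6.08 and 4.97). The other control-only regions of the list belonged to Inpp5d with 2, Lyn, Plcg2 and Btk. Cd47, the ligand of Sirpa, had an IL-4-only region at −1363 bp (10.19 and 5.67), and Plcg2 had the other (7.96 and 2.49). Among the relatives, Sirpb1a with 2, Pilrb2, Cd300lb and Treml4 had control-only regions, and Treml4 also the only IL-4-only one (4.7 and 3.4).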

How the data were processed

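ATAC-seq peak lists of 2 control and 2 IL-4 libraries were analysed. The authors aligned reads to mm10 with BWA, called peaks with MACS2 in each library without pooling, removed blacklisted regions and annotated peaks with HOMER (submitters' processing notes: BWA 0.7.10, SAMtools 0.1.19, MACS2 2.0.10, HOMER 4.2). Tn5 shifting and duplicate handling are not given in the sources used here. The deposited peak scores were taken as −log10 q-values, because the lowest score was 1.3 to 1.32; the methods name a q cut-off of 0.01. Depth is unknown, so DiffBind, which needs reads, was not run and no interval from counts was given.

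Nuclear peaks were merged at 1 bp overlap; a region took the highest peak of each library. Log2 heights of the 25442 regions with peaks in all 4 libraries were quantile-normalised and then fitted in R 4.3.3 with limma 3.58.1 (trend, Benjamini-Hochberg over all regions, threshold 0.05), after a test on simulated data. Peak numbers were compared by exact permutation (scipy 1.17.1). With no statement that replicates are separate animals, p-values measure the spread between these libraries. Motifs were searched on both strands in GRCm38.p6, for which 0 peaks exceeded a chromosome length and 48 of 57 receptor regions with a known transcript had their TSS distance within 2 bp (the other 9, all of Sirpa, 26 bp). Promoter sequences and gene models are from RefSeq. Older symbols in the files (Siglec5, Sfpi1 and 3 others) were matched by gene ID.

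Named regions were, for each gene, every promoter and group-specific region, the region of highest mean height and that of lowest p; sequences shown were the 3 highest control-only regions and up to 4 promoters, of which Sirpa was left out because its transcript was not found. The members and lists were chosen with earlier results of these data known. Alternatives varied the score minimum, merging, distance, normalisation, trend, replicate block, missing heights, motif window and libraries.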

Additional observations from a re-analysis of the deposited data

How the results depend on the processing

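No region of the 10 genes passed the adjusted limma threshold under any setting, and their lowest adjusted p ran from 0.1775 to 0.7987. When weaker peaks than the pooled median were left out, 31 regions remained, 1 IL-4-only and 2 control-only (1.89% and 5.85% of all regions at this setting), the difference in peak number was 0.5 and the median change −0.394 over 12 regions; fewer peaks enter by construction. Allowing 1 library of the other group gave 3 IL-4-only and 10 control-only regions (7.15% and 13.0% of all regions). Without normalisation the median was −0.344, against −0.211 for all regions. Leaving out each library in turn gave 1 to 5 IL-4-only and 8 to 12 control-only regions (4.60% to 10.0% and 7.74% to 14.7% of all regions), where 1 library stands for a group, 56 to 60 regions, 10 to 11 regions with the STAT6 pattern, a difference of −9.5 to −6.5 peaks and a median change of −0.239 to 0.135. Changes of single regions that turned direction ranged from −0.239 to 0.129 (Sirpa +40223 bp), −0.094 to 1.661 (Trem2 −9353 bp), −1.575 to 0.135 (Siglecg −15701 bp) and −0.687 to 0.062 (Trem2 +79 bp); the cause was not tested. Others kept their sign but moved by over 1.5 times from the value with all libraries, namely Siglec1 −4275 bp (0.136 to 0.892), Pilra +5806 bp (0.157 to 1.025), Siglece +5452 bp (−0.615 to −0.11), Trem1 −1861 bp (−0.708 to −0.137), Cd300lf −37 bp (−0.891 to −0.195), Sirpa −80 bp (−0.659 to −0.09), Cd300a +8195 bp (−0.604 to −0.291) and Cd300a −10183 bp (−1.869 to −0.473). The rest were Sirpa +2895 bp (1.083 to 2.15), Cd33 +2548 bp (1.276 to 1.676) and Cd33 −41 bp (−1.034 to −0.82). The height differences between replicates 1 and 2 were not correlated between control and IL-4 (r = 0.007 over 25442 regions). This cannot show whether the libraries were prepared in pairs. With the replicate number as a block, 0 regions of the 10 genes were called in either direction, and over all regions 11 were called higher and 3 lower, against 4 and 2. Height grows with read depth, which is unknown, and this limits every value here.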
